A study of Mus musculus with 8 samples.

Results

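The genes described are Spata13 and 9 other genes that switch on or limit the small GTPase Rac: Tiam1, Tiam2, Vav2, Vav3, Trio, Kalrn, Dock1, Dock3 and Chn2. Spata13 was chosen by its signal, which had been seen higher with T3 at all 4 time points, and the other 9 were listed around it for their function. Every probe-set whose only gene symbol is one of these 10 names was taken, which gave 35 of the 45037 probe-sets on the array. Of the 35, 11 probe-sets of 8 genes passed the filter on low signals that is set out with the first test, while no probe-set of Tiam2 or Vav3 did.

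The arrays came from primary cultures of cerebellar neurons of wild-type mice, kept for 48 h in serum-free Neurobasal medium with B27 supplement. The cultures were then given the active thyroid hormone T3 at 0.1 µM, or no added T3, for 6, 16, 24 or 48 h. The sample labels give pups of P4 to P7 and the methods P1 to P4, no strain is named, and cerebella were pooled before plating. There was 1 T3 and 1 untreated culture at each time point, 8 arrays in all, so no condition had a replicate, and each pair came from 1 cell batch. Values are MAS 5 signals on a linear scale that the authors scaled to the same trimmed mean on every array (median signal 14.8 to 17.7).

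The cultures were checked against cell type markers before the members were read. All 6 general neuronal markers passed the filter, and their summed signal was 928.3 to 4653.3 with T3 and 507.3 to 7208.5 without. Of the 7 granule neuron markers measured 5 passed, Neurod1, Rbfox3, Grin2c, Cbln1 and Slc17a6. Gabra6 of differentiated granule cells and Slc17a7 did not. On the untreated 24 h array the summed signal of the 8 astrocyte and Bergmann glia markers was 3129.3, against 654.2 to 1240.4 on the other 7 arrays. The oligodendrocyte markers summed to 2423.4 there and to 823.9 with T3 at 24 h, and the Purkinje and GABAergic markers to 1837.9 and 380.7. Of the marker lists, only the vascular and meningeal one was lower there than with T3 at 24 h, 4178.7 against 6109.4. The T3 differences of Spata13, Chn2, Dock1, Dock3, Kalrn, Vav2, Trio and Arhgef4 are therefore also given without the 24 h arrays. So is the hours fit. By summed signal, none of the 9 marker lists was higher or lower with T3 in all 4 pairs, and no marker was at 0 on all arrays. Single markers could differ from their list. Csf1r, Tyrobp, Gdf10 and Snap25, for example, were higher with T3 in all 4 pairs, and Ccnd2 was lower in all 4. In such bulk cultures, fewer cells of a type and less RNA per cell cannot be told apart.

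Rac is a molecular switch that is active when bound to GTP and drives actin assembly at the leading edge of growing axons and migrating cells. Guanine nucleotide exchange factors load it with GTP, and GTPase activating proteins return it to its resting state. Spata13, also called Asef2, is an exchange factor for Rac and Cdc42 that binds the tumour suppressor Apc. Tiam1, Tiam2, Vav2, Vav3, Trio and Kalrn share with it a Dbl-type exchange domain, Dock1 and Dock3 use a different exchange domain, and Chn2 encodes beta-chimaerin, which turns Rac off. In the developing cerebellum granule neurons depend on Rac signalling to extend axons and to migrate.

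T3 acts through nuclear receptors that commonly bind repeats of the hexamer AGGTCA, so the sequences just upstream of the annotated transcript starts are shown for Spata13, the gene chosen for its T3 difference, and for the 1 member window that held the hexamer. They are the 250 bases before the start in RefSeq on GRCm38.p6, where all 10 genes matched, with 19 windows in total. Both strands were searched. The hexamer, in capitals where present, was found in 1 of the 19 member windows and in 14.0% of all 32851 windows. Repeats of it in the same direction spaced by 4 bases were in none of the 19 and in 5 of all windows. The Spata13 windows lie at chr14:60634455-60634704 and chr14:60732654-60732903, both on the plus strand, and the Chn2 window at chr6:54272572-54272821, plus strand.

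Spata13 upstream window 1: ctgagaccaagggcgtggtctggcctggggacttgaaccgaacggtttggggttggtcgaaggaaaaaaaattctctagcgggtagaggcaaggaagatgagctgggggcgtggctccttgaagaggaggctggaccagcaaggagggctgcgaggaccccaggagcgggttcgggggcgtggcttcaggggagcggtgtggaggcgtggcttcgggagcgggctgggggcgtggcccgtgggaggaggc

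Spata13 upstream window 2: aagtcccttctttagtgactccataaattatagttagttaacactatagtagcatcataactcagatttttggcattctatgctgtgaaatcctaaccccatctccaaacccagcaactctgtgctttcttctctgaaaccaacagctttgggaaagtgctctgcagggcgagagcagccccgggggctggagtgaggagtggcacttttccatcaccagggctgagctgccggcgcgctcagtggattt

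Chn2 upstream window: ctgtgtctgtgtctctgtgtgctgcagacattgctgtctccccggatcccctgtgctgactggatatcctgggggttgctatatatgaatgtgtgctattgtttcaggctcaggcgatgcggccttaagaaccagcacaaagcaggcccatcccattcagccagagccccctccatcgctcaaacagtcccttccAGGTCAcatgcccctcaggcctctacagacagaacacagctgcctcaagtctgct

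The Spata13 windows differed in composition, with 65.6% and 48.8% G and C. No hexamer in these windows says only that these letters are not there. In the Chn2 window it began 55 bases before the start, and Chn2 has 3 further annotated starts without it.

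On its brightest probe-set, 1454656_at, Spata13 had signals with T3 of 560.5 at 6 h, 234.4 at 16 h, 423.5 at 24 h and 129.6 at 48 h. Without T3 they were 268.5, 139.5, 191.4 and 97.5. The ranges of the treated and untreated arrays overlapped, but within every pair the treated culture was the higher one. The log2 differences, T3 minus untreated, were 1.06, 0.75, 1.15 and 0.41, with a mean of 0.84 ± 0.33 (SD, 4 pairs). Without the 24 h pair the mean was 0.74. As these values chose the gene, they are given as a description and have no test.

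The second Spata13 probe-set, 1437865_at, had 135.9, 86.5, 103.4 and 80.8 with T3 and 70.2, 56.1, 70.1 and 61.2 without, at 6, 16, 24 and 48 h. Its mean log2 difference was 0.63 ± 0.23 (SD, 4 pairs). The third, 1438543_at, lay below the filter, with 48.0, 24.1, 52.3 and 17.4 with T3 and 26.6, 14.2, 21.3 and 7.7 without, and a mean log2 difference of 1.02 ± 0.25. All 3 probe-sets were thus higher with T3 in all 4 pairs, as were 8.25% of the probe-sets above the filter and 7.99% of all 45037. They read 1 gene in the same RNA and are not independent. They parted at 24 h, where the difference was 1.15 on the brightest probe-set, 0.56 on the second and 1.30 on the third. At 48 h they parted as well, with 0.41, 0.40 and 1.18 in the same order.

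Among the 18015 probe-sets above the filter, 31, Spata13 included, had a mean T3 difference at least as large as that of 1454656_at. Counted by the smallest of the 4 differences, 25 were at or above its 0.41. These ranks describe the choice of the gene and support nothing beyond it.

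**Figure D1:**
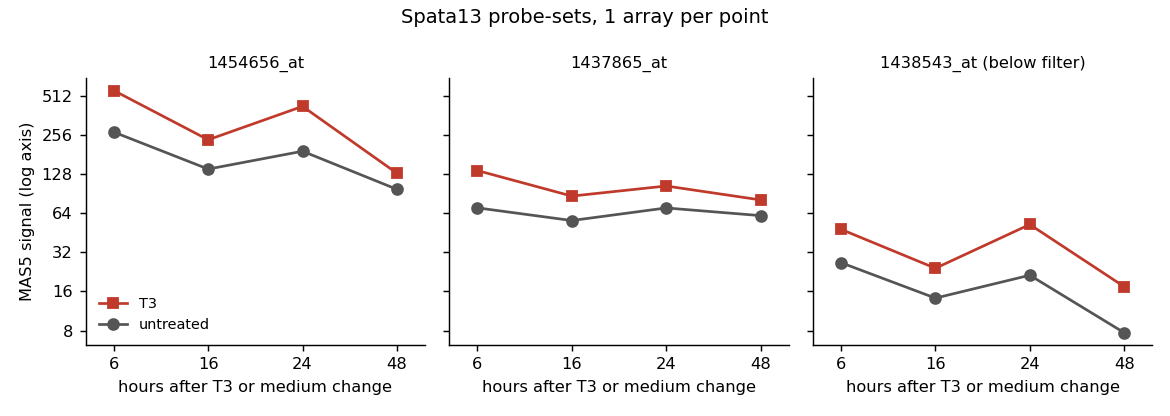
MAS 5 signal (log axis) of the 3 Spata13 probe-sets against the hours after addition of T3 or medium change. Red squares, T3. Grey circles, untreated, 1 array per point. In each panel the T3 array lies above the untreated array of the same hour, and on 1454656_at the signal is highest at 6 h in both groups and lowest at 48 h.

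Trio, an exchange factor that acts in axon guidance, ran the other way on its brightest probe-set. On 1433745_at it had 460.3, 269, 484.3 and 248 with T3 and 579.7, 333.1, 533.9 and 283.7 without, at 6, 16, 24 and 48 h. The T3 culture was the lower one in all 4 pairs, by a mean log2 difference of -0.24 (SE 0.10, limma adjusted p = 0.815). The other Trio probe-sets above the filter were not lower in all 4 pairs. On 1454711_at the difference was positive at 24 h (0.18) and negative at the other 3 time points, with a mean of -0.17 (SE 0.13). On 1439552_at it was positive at 3 of 4, with a mean of 0.22 (SE 0.17). Without the 24 h pair the mean was -0.28 on both 1433745_at (SE 0.09, limma adjusted p = 0.669) and 1454711_at (SE 0.11, adjusted p = 0.679). On 1439552_at it was then 0.13 (SE 0.20). Of the 3 Trio probe-sets below the filter, 1457492_at was lower with T3 in all 4 pairs (-0.39 ± 0.23, SD).

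Dock1, which partners Elmo proteins to activate Rac in cell migration and engulfment, was also lower in all 4 pairs, by little. Its signals on 1452220_at were 200.2, 264, 160.2 and 298.6 with T3 and 216.6, 285.6, 193.8 and 312.1 without. The mean log2 difference was -0.14 (SE 0.11, adjusted p = 0.820), and -0.097 without the 24 h pair. Dock3, an exchange factor largely of neurons, had 72.6, 44, 62.8 and 19.4 with T3 against 111.5, 34.2, 124.7 and 11.7 without. It was lower at 6 and 24 h and higher at 16 and 48 h, and its mean difference of -0.13 (SE 0.29) turned to 0.16 without the 24 h pair.

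Chn2 had the widest single difference among the members above the filter. On 1428573_at its signals were 171.1, 47.4, 28.9 and 38.6 with T3 and 200.1, 57.7, 172.9 and 28.6 without. The log2 difference at 24 h was -2.58, while at 6, 16 and 48 h it was -0.23, -0.28 and 0.43. The mean of the 4 was -0.66 (SE 0.44, adjusted p = 0.818), and without the 24 h pair it was -0.026 (SE 0.18). Its other probe-set, 1428574_a_at, lay below the filter and had 10.2 with T3 and 38.4 without at 24 h. The untreated 24 h array was also the one with the highest summed neuronal markers, 7208.5 against 3350.3 with T3 at 24 h, and with the high glial markers. Their part in the Chn2 value was not tested.

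**Figure D2:**
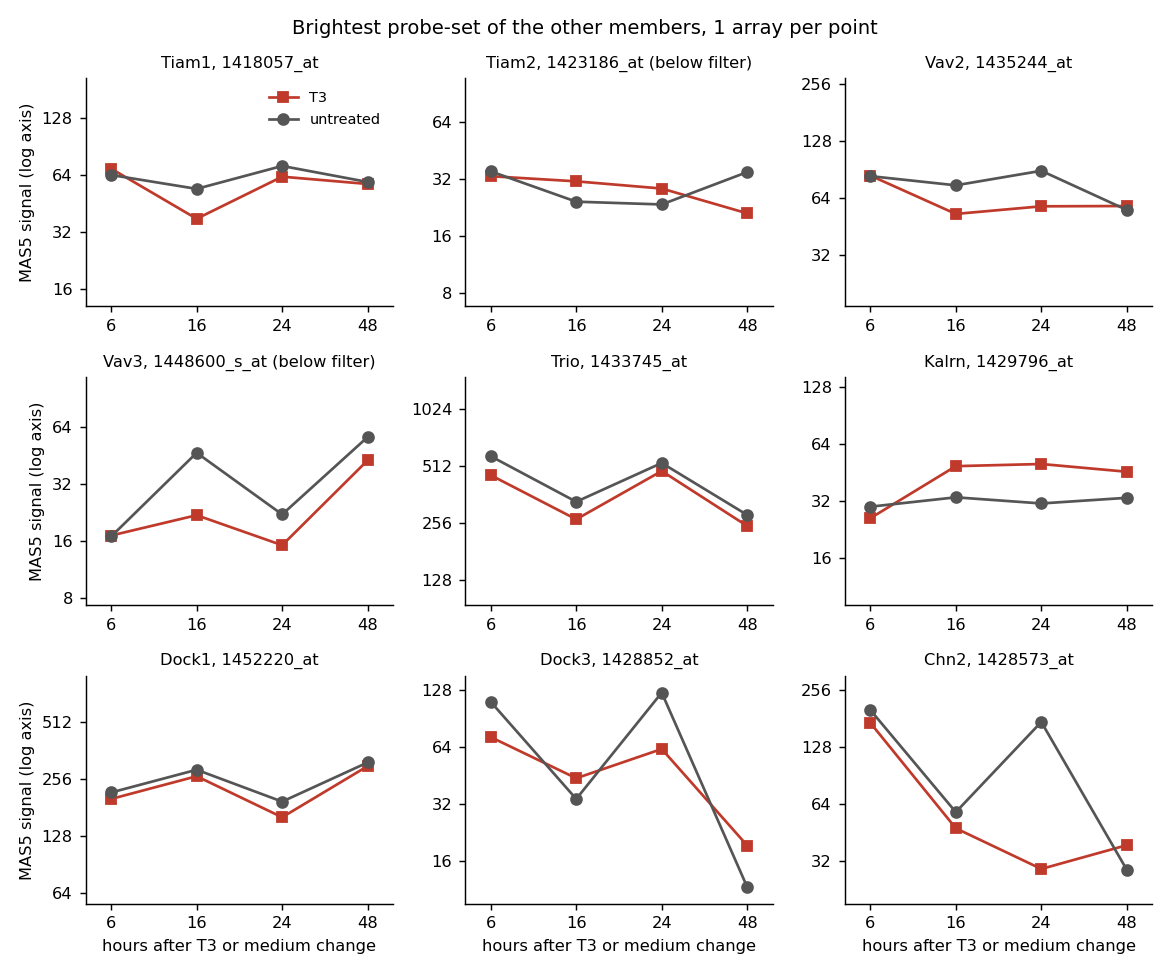
MAS 5 signal (log axis, every panel spanning 16-fold) of the brightest probe-set of the other 9 members against the hours. Red squares, T3. Grey circles, untreated, 1 array per point. The Trio and Dock1 lines with T3 run just under the untreated ones throughout, and the Chn2 lines part at 24 h, 28.9 against 172.9.

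Tiam1 and Vav2 stayed within narrow ranges. Tiam1, a Rac exchange factor of dendrites and migrating neurons, had 68.8, 37.4, 62.4 and 57.1 with T3 and 63.7, 53.8, 71.1 and 58.5 without on 1418057_at (mean log2 difference -0.16, SE 0.16, adjusted p = 0.841). Its other 2 probe-sets had signals of 0.7 to 8.7. Vav2, an exchange factor switched on by tyrosine kinase receptors, had 83.9, 52.6, 57.7 and 57.9 with T3 and 83.3, 74.5, 88.9 and 55.2 without on 1435244_at (-0.26, SE 0.17, adjusted p = 0.818, and -0.14 without the 24 h pair). Its T3 arrays were the lower ones at 16 and 24 h and nearly level with the untreated ones at 6 and 48 h.

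Tiam2 and Vav3 had low signals and were not tested behind the filter. Tiam2, a close relative of Tiam1, had 33, 31, 28.4 and 21 with T3 and 35, 24.2, 23.4 and 34.7 without on 1423186_at, with no common direction (mean log2 difference -0.043 ± 0.49, SD). Vav3, an exchange factor needed for the normal development of cerebellar cells, had 17.1, 21.9, 15.2 and 42.7 with T3 and 16.9, 46.8, 22.1 and 56.7 without on 1448600_s_at. It was level at 6 h and lower with T3 at 16, 24 and 48 h (-1.10, -0.54 and -0.41). A further Vav3 probe-set, 1417122_at, had 6, 21, 8.9 and 29.5 with T3 and 7.2, 37.7, 19 and 41.2 without, lower with T3 in all 4 pairs. The platform annotation ties both to the same transcript record. With no filter neither reached an adjusted p below 0.812.

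Kalrn, the close relative of Trio that shapes dendritic spines, was read by 8 probe-sets that did not move together. Only 1429796_at passed the filter, with 25.9, 48.8, 50.1 and 45.6 with T3 and 29.8, 33.4, 31 and 33.2 without. From 16 h on its T3 arrays lay above all untreated ones, and at 6 h below (mean log2 difference 0.37, SE 0.20, adjusted p = 0.815). Without the 24 h pair its mean difference was 0.27. On 1442554_s_at the signals were 30.3, 62.2, 27.4 and 44 with T3 and 13.6, 40.4, 27.9 and 17.5 without, higher at 6, 16 and 48 h and level at 24 h. By contrast, 1448023_at and 1440970_at were lower with T3 at 24 h, 29.2 against 66.9 and 18.2 against 70.8. These untreated values are from the 24 h array with the high neuronal and glial markers, whose part was not tested. At 6, 16 and 48 h the log2 differences were -0.24, 0.09 and 0.08 on 1448023_at. On 1440970_at they were -0.13, -1.28 and 0.58. Which Kalrn transcripts these probe-sets read is not given in the sources used here.

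**Figure D3:**
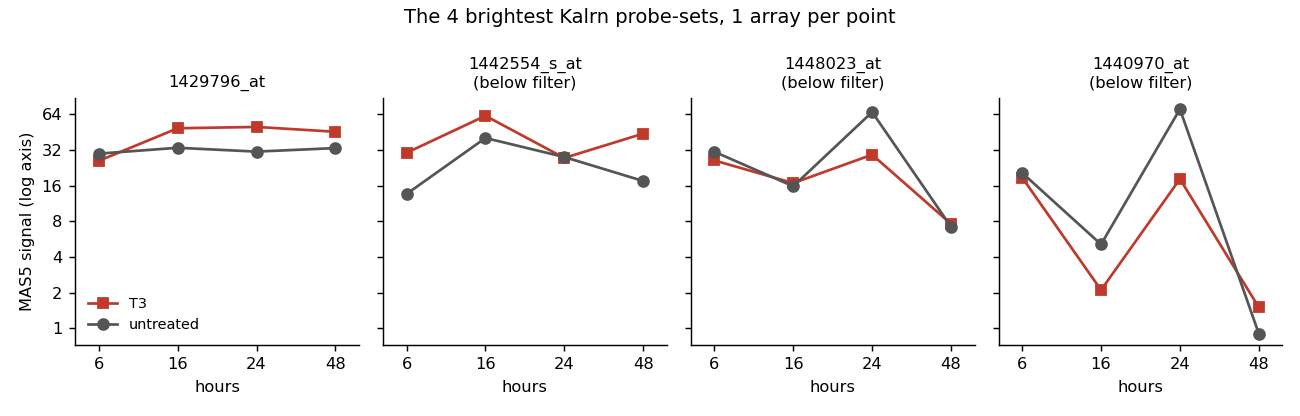
MAS 5 signal (log axis) of the 4 brightest Kalrn probe-sets against the hours. Red squares, T3. Grey circles, untreated, 1 array per point. On 1429796_at the untreated line stays between 29.8 and 33.4, while on 1448023_at and 1440970_at the untreated culture peaks at 24 h with 66.9 and 70.8.

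For the T3 effect, limma compared the 4 pairs of log2 signals, each time point forming a block, on the 18015 probe-sets whose mean log2 signal reached the 60th percentile (a signal of about 31). None of the 9 probe-sets of Tiam1, Vav2, Trio, Kalrn, Dock1, Dock3 and Chn2 passed at an adjusted p of 0.05, and 0% of all 18015 did (0 probe-sets, smallest adjusted p = 0.154). At an unadjusted p under 0.05 there were 985 of all and 1 of the 9, Trio 1433745_at. The median of the mean differences was -0.16 over these 9 probe-sets, from -0.66 to 0.37, and 0.01 over all 18015.

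By sign, 2 of these 9 probe-sets, Trio 1433745_at and Dock1, were lower with T3 in all 4 pairs, where 6.82% of all probe-sets above the filter were. None of the 9 was higher in all 4. With the low signals included, 8 of the 32 probe-sets of the 9 genes were lower in all 4 pairs, against 4.98% of all 45037, and none was higher in all 4. Those 8 belong to 5 genes, Kalrn with 3, Trio with 2 and Chn2, Dock1 and Vav3 with 1 each, and several have signals of a few units. Of the 10 genes only Spata13, chosen for it, had a probe-set above its untreated partner in every pair.

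At single time points, none of the 9 probe-sets lay past 2-fold at 6, 16 or 48 h, and 1 did at 24 h, Chn2. Over all 18015 the shares past 2-fold were 0.855% at 6 h, 0.738% at 16 h, 8.83% at 24 h and 1.18% at 48 h. Spata13 1454656_at was past 2-fold at 6 and 24 h. These folds compare 1 array with 1 array and have no error. Whether the T3 difference moved with the log2 of the hours was also fitted over the 4 differences, and 0% of 18015 passed (309 at an unadjusted p under 0.05, none of them among the 9).

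**Figure D4:**
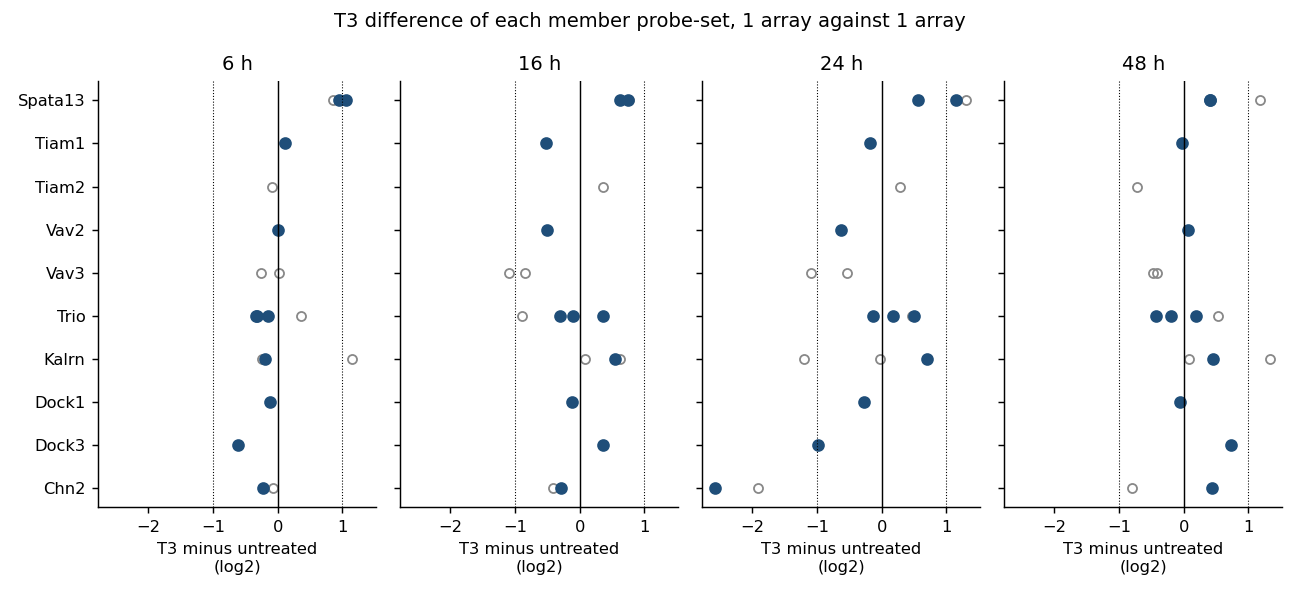
Log2 difference, T3 minus untreated, of the member probe-sets at each time point. Filled points passed the filter and open points are those below it with a mean signal of at least 16, and dotted lines mark 2-fold. Spata13 lies to the right of 0 in all 4 panels, and Chn2 at 24 h is at -2.58.

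The change with hours, counted from the addition of T3 or medium change after 48 h in culture, did not enter the choice of Spata13. Between the first and the last time point its brightest probe-set went from 268.5 to 97.5 in the untreated cultures and from 560.5 to 129.6 with T3, and 24 h lay above 16 h in both. With each doubling of the hours the log2 signal had a slope of -0.52 (limma with a random effect of the time point, SE 0.16, adjusted p = 0.106). On 1437865_at the slope was -0.14 (SE 0.12, adjusted p = 0.501). None of the 11 member probe-sets passed (1 at an unadjusted p under 0.05), where 2.18% of all 18015 did.

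Among the other members the slopes were steepest for Chn2, -0.78 (SE 0.37, adjusted p = 0.233), and Dock3, -0.72 (SE 0.32, adjusted p = 0.215). Without the 48 h arrays the slope of Dock3 was -0.17, that of Spata13 1454656_at -0.33 and that of Trio 1433745_at -0.11, and without the 6 h arrays that of Chn2 was -0.49. The 3 Trio probe-sets had -0.26, -0.25 and -0.36, and Dock1 had 0.13 and Kalrn 0.16. On their brightest probe-sets Trio, Spata13, Dock3 and Tiam1 were higher at 6 and 24 h than at 16 and 48 h with either treatment. Dock1 and Vav3, on theirs, were lower at 6 and 24 h than at 16 and 48 h with either. The summed neuronal markers had the first of these patterns as well, with 4653.3, 1686.7, 3350.3 and 928.3 with T3 and 5035.7, 1375, 7208.5 and 507.3 without, and their part in these slopes was not tested. Vav3 on 1417122_at had low signals at 6 h, 6 with T3 and 7.2 without, and 29.5 and 41.2 at 48 h.

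Without the 24 h arrays, 5 of the 11 member probe-sets passed, all with negative slopes, beside 27.6% of all 18015. They were Spata13 1454656_at (-0.59, SE 0.11, adjusted p = 0.00810), Chn2 (-0.82, SE 0.15, adjusted p = 0.00925), Dock3 (-0.86, SE 0.18, adjusted p = 0.0140) and Trio on 1433745_at and 1439552_at (-0.32 and -0.50). None of the 11 passed when the arrays of 6, 16 or 48 h were left out instead. The methods give 1 cell batch for each pair, with no statement for the 4 pairs together, so hours and batch cannot be told apart.

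**Figure D5:**
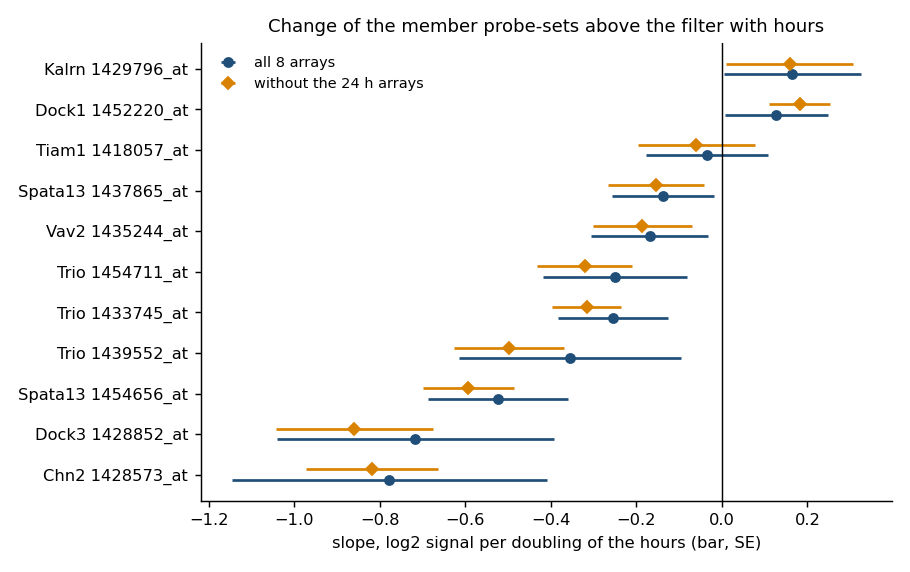
Slope of the log2 signal per doubling of the hours for the 11 member probe-sets above the filter. Blue circles, all 8 arrays. Orange diamonds, without the 24 h arrays, and bars are the SE. Chn2, Dock3 and Spata13 1454656_at lie farthest to the left in both fits, with Dock1 and Kalrn on the positive side.

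The genes whose log2 signals over the 8 arrays were most like those of Spata13 1454656_at, among 10193 genes, were Ccni, an atypical cyclin (r = 0.971), Spata2, an adaptor of deubiquitinases (0.959), Tti2, of the complex that stabilizes PI3K-related kinases (0.955), Acd, a telomere protein (0.953), and Sel1l3 (0.948). All 5 were higher with T3 in all 4 pairs, by mean log2 differences of 0.072 to 0.38, each smaller than that of Spata13. The choice by likeness to a gene picked for that sign favours it. Of the members, Dock3 (r = 0.683) and Trio (0.620) were nearest and Dock1 (-0.821) farthest. The 8 points form 4 pairs of cultures, and these r are descriptions.

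Other genes around Rac were read from 4 lists: small GTPases, further exchange factors, GTPase activating proteins with GDP dissociation inhibitors, and effectors. Of 76 listed genes 69 had a probe-set and 51 passed the filter. None of the 51 passed the T3 test or the test of hours at an adjusted p of 0.05, where 0% and 2.18% of all probe-sets did, and the smallest adjusted p for hours among the 51 was 0.0518. The median T3 difference over the 51 was -0.05, beside 0.01 over all probe-sets. In all 4 pairs 7 of the 51 (13.7%, beside 6.82% of all probe-sets) were lower, among them the actin regulator kinase Limk1 (-0.34 ± 0.16, SD) and Arhgef4 (Asef), a close relative of Spata13 (-0.38 ± 0.49, and -0.13 without the 24 h pair). In all 4 pairs 1 was higher (1.96%, beside 8.25%), the cytokinesis protein Racgap1 (0.082 ± 0.023).

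Among the 51 genes above the filter the widest differences at 6 h were those of the kinase Pak3, an effector of Rac (146.1 with T3 and 218.7 without, log2 -0.58), Rac2, the Rac of blood cells (83 and 58.8, 0.50), and the exchange factor Prex1 (111.6 and 83, 0.43). At 16 h they were Rac2 (53.8 and 29.9, 0.85), the actin adaptor Baiap2 (54.6 and 34, 0.68) and Elmo2, a partner of Dock proteins (107.8 and 77.6, 0.47). None of these was past 2-fold.

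At 24 h the GTPase activating protein Srgap3 (135.7 with T3 and 390.3 without, log2 -1.52), Prex1 (48.6 and 108.5, -1.16) and Cyfip2 of the WAVE complex, through which Rac drives actin branching (210.6 and 460.1, -1.13), were past 2-fold, as were 5 of the 51 in all (9.80%, near the 8.83% of all probe-sets). The untreated value in each of these is from the 24 h array with the high neuronal and glial markers, whose part was not tested. Prex1 had 111.6, 63.5, 48.6 and 78.9 with T3 at 6, 16, 24 and 48 h. Without T3 it had 83, 58.3, 108.5 and 70.5, highest at 24 h. Prex1 differed in sign between 6 and 24 h. At 48 h Srgap1 (77.1 and 38.9, 0.99), Wasf1 of the WAVE complex (179.1 and 103.4, 0.79) and the exchange factor Dock4 (47.7 and 32.2, 0.57) differed most. Microglia express Rac2, and the 7 microglia markers summed to 867.7 with T3 and 653.4 without at 6 h and to 317.4 and 261.1 at 16 h. Their part in the Rac2 values was not tested.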

How the data were processed

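The values analysed are the signal intensities the authors deposited, 1 for each probe-set and array, made with GCOS and MAS 5 (submitters' processing notes) after two-cycle cDNA synthesis, linear and with a trimmed mean of 100 on every array. Amplification and scaling of this kind leave low signals noisy. Genome build and software versions are not given in the sources used here. After 64 control probe-sets were left out, 34945 carry 1 gene symbol, 932 several and 9160 none in the platform annotation. All 10 member gene IDs matched RefSeq. Signals were floored at 1 before taking log2, and probe-sets with a mean log2 signal at or above the 60th percentile (4.95) were kept.

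The T3 effect was fitted with limma 3.58.1 in R 4.3.3 (time point as a block, variance trend), the slope on log2 hours adjusted for treatment, pairs entering through duplicateCorrelation (0.569), and the T3 effect that changes with hours on the 4 paired differences. Benjamini-Hochberg adjustment ran over the 18015 probe-sets kept. A gene is given by its brightest probe-set, with some of the others beside it. The member probe-sets not given singly lay below the filter and entered the counts by sign, and some had a mean difference opposite to that of the brightest. Of the other Rac genes, those past a test and the 3 widest T3 differences at each time point are named, and of all genes the 5 most like Spata13. Limk1, Arhgef4 and Racgap1 were named after their values were seen. Arhgef4, Trio, Spata13, Dock1 and Kalrn were likewise given without the 24 h pair after their values were seen. The pairing comes from the methods (shared cell batch), and deviations from the treatment mean correlated within pairs at 0.905, 0.713, 0.520 and 0.878. Arrays of a pair also share their hour, so these correlations cannot tell a shared batch from a shared hour. The members, lists and tests were chosen with earlier results of these data known. P values rest on 4 pairs, and the small number of arrays limits the precision. Fits were tested on simulated data. Alternatives were adding 32 to signals, quantile normalization, filtering at the 75th percentile or not at all, omitting the block, independent arrays, means of both arrays of an hour, plain hours, a 1.6-fold threshold, averaging a gene's kept probe-sets and dropping each time point. Plots came from matplotlib 3.10.9 under Python 3.11.15.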

Additional observations from a re-analysis of the deposited data

Results flagged for a closer look

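With T3, Kalrn on 1429796_at had a log2 signal of 4.69 at 6 h, apart from 48.8, 50.1 and 45.6 on the linear scale at 16, 24 and 48 h. Its gap to the nearest of these, divided by the range of the 4, was 0.857, past the 95% critical value of Dixon's test. The 4 arrays are different time points and not repeats of 1 condition. It was the only such value in 30 sets of 4 checked, where chance gives about 1 in 20.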

How the results depend on the processing

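No member probe-set passed the T3 test, or the test of a T3 effect that moves with hours, under any alternative run. Over all probe-sets 0 passed the T3 test in each alternative, without the replicate block included (0 called, 76 at an unadjusted p under 0.05), except for 0 to 2 when a time point was left out, the 2 without the 24 h pair. The fit of a T3 effect that moves with hours gave 0 to 2 in the same way, the 2 without the 48 h pair. The hours fit depended most on the settings. With the arrays taken as independent 2 member probe-sets passed, Spata13 1454656_at and Chn2 1428573_at, and leaving out a time point gave 0 to 5, the 5 without 24 h. Over all probe-sets its 392 calls became 55 with quantile normalization, 162 with 32 added, 8 with no filter, 3458 with independent arrays, 0 when the arrays of an hour were averaged (3409 before adjustment), 0 on plain hours (3585) and 0 to 4981 without a time point (0 without 6 h or 48 h, 1109 without 16 h, 4981 without 24 h). At a 1.6-fold threshold 3 member probe-sets other than Spata13's were past it at 24 h and 1 at 48 h. The share of all probe-sets past 1.6-fold was not counted, so these counts say nothing particular about the members. Past the stricter 2-fold were 8.83% of all at 24 h and 1.18% at 48 h. Leaving out a time point gave a Dock3 T3 difference of -0.42 to 0.16 (positive without 6 h, 0.034, or 24 h), a Tiam1 slope of -0.070 to 0.18 and a Kalrn slope of -0.032 to 0.28 (both turned without 6 h), and a Dock1 slope of -0.046 to 0.18 (turned without 48 h). Of single members' T3 differences under alternatives 63 kept their direction and 3 turned, the third that of Tiam2, 0.18 without 48 h. The 63 include those of Spata13, which was chosen for being higher with T3 in every pair. Leaving out a pair could not turn its direction, so its values there say nothing about robustness. Why the results differ between settings was not tested. Signals near or below the filter limit Tiam2, Vav3 and most Kalrn probe-sets.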
